A study of Mus musculus with 4 samples.

Results

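Genes of cholesterol synthesis, uptake and efflux were examined in the cortex of male mice of the SAMR1 strain, which ages normally and serves as the reference for senescence-prone SAM strains. The set was chosen by gene name from 30 symbols that cover the mevalonate steps, the sterol steps, the regulators and the transport genes. Of these, 26 carried a transcript cluster on the array, among 19505 genes in all, each with 1 transcript cluster. Acat2, Tm7sf2, Srebf1 and Nr1h2 were not analysed here. All mice were kept singly for 4 months from 7 months of age. From 11 months one group received the plant polyphenol tricaffeoylquinic acid (TCQA) by mouth for 1 month, 5 mg/kg each day, while control mice received MilliQ water. Each group has 2 Clariom S arrays, numbered 1 and 2, and the labels do not say whether an array held 1 mouse or a pool. The p-values therefore rest on the spread between 2 samples a group, and part of that spread may be technical. Limma draws the spread of each gene towards a value shared over all genes, so a small gap between 2 arrays does not give a small SE.

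Values are log2 signals as the authors deposited them, so a difference of 1 is a doubling. Medians of the 4 arrays over 19572 named transcript clusters lay between 6.98 and 7.04. The negative control probe sets, which match no mouse transcript, had a median of 6.98 and a 95th percentile of 11.06. All 4 arrays lay at or above that median for 23 of the 26 cholesterol genes, and all 4 at or above the 95th percentile for 7. Mvk lay below the median on every array, and Fdps and Nr1h3 on 2 arrays each, so their differences are the least certain in size. Slc17a7, the vesicular glutamate transporter of cortical excitatory neurons, lay between 15.98 and 16.34. Of the 7 excitatory cortical neuron markers read, 6 lay at or above the negative control median on all 4 arrays. Neurod2 did so on 3, and 3 of the 7 markers lay at or above the 95th percentile on all 4. Striatal and choroid plexus markers were also present, and their levels are given with the results by array.

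Cholesterol in the brain is made locally, because lipoproteins of the blood do not cross the blood-brain barrier. Acetyl-CoA is built into mevalonate and farnesyl pyrophosphate, joined into squalene, closed into lanosterol and trimmed to cholesterol. The SREBP transcription factors are held in the endoplasmic reticulum by Scap and the Insig proteins while sterols are plentiful, and are released to switch on the synthesis genes when sterols fall. Adult astrocytes supply neurons, oligodendrocytes need cholesterol for myelin, and neurons dispose of the excess through Cyp46a1.

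The comparison asked whether the cortical expression of these genes differed after a month of TCQA. Fitted with limma and adjusted by Benjamini-Hochberg, 0 of 26 cholesterol genes passed at 0.05, as did 0 of all 19572 transcript clusters (0%), and the smallest adjusted p among the 26 was 0.673. Stard4, a cytosolic sterol carrier, was the single member with an unadjusted p under 0.05, at 1.61-fold higher after TCQA. That is 1 of 26, or 3.85%, against 7.37% of all transcript clusters, 3.48% higher and 3.89% lower. None of the 26 also changed over 2-fold, as the study required of its calls, against 0.664% of all transcript clusters. So the share of members called was below the background in total and near it in the higher direction. With 1 array left out, the difference of Stard4 ran from 0.32 (without water 1) to 1.05 (without water 2). In bulk tissue, fewer cells of a type and less RNA per cell cannot be told apart.

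The differences of the 26 genes were small. They ran from -0.36 for Mvd to 0.68 for Stard4, with a median of 0.072, beside 0.0028 over all transcript clusters. Above zero lay 18 (69.2%) and below it 8, while 50.5% of all transcript clusters lay above. Leaving out one array gave a median of 0.12 (TCQA 1), 0.089 (TCQA 2), 0.11 (water 1) or 0.15 (water 2), and quantile normalisation gave 0.016. The 95% interval of a difference reached between 0.44 and 0.66 to either side, with a median of 0.51. An estimated difference under about that size therefore could not reach an unadjusted p under 0.05 by limma with 4 arrays. A true change of that size or more could still be missed, and no difference of any size passed after adjustment. Missing the threshold does not show that a gene was equal in both groups.

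**Figure D1:**
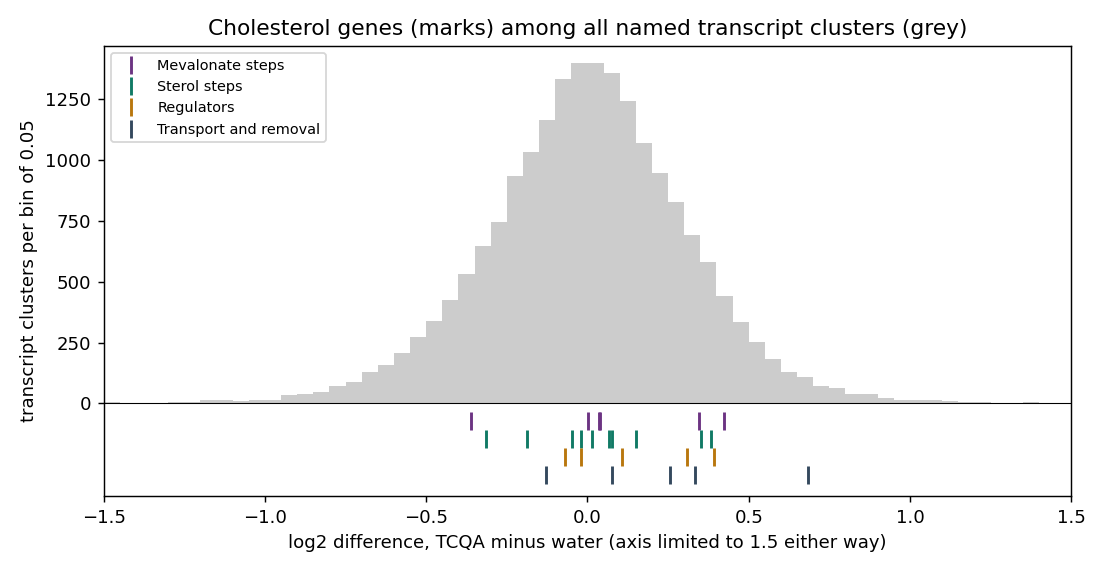
Log2 difference between TCQA and water for all named transcript clusters (grey bars, count per bin of 0.05, axis limited to 1.5 either way) and for the 26 cholesterol genes (coloured marks by role). The marks run from -0.36 (Mvd) to 0.68 (Stard4), and Stard4 stands in the upper tail, at percentile 98.3 of all differences.

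Both TCQA arrays lay above both water arrays for 10 of the 26 genes (38.5%), against 19.9% of all transcript clusters. Both lay below for 2 genes (7.69%), against 19.2%. The 10 genes were Hmgcs1, Idi1, Msmo1, Nsdhl, Hsd17b7, Ebp, Srebf2, Scap, Stard4 and Cyp46a1, and the 2 were Mvd and Sc5d. The space between the groups ranged from 0.024 for Hsd17b7 to 0.29 for Stard4. In 8 of the 10 water 1 was the lowest array, as it was in 54.6% of all transcript clusters whose TCQA arrays both lay above both water arrays. Over all members, overlapping or not, water 1 was the lowest array for 11 of 26 (42.3%), against 26.5% of all transcript clusters.

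**Figure D2:**
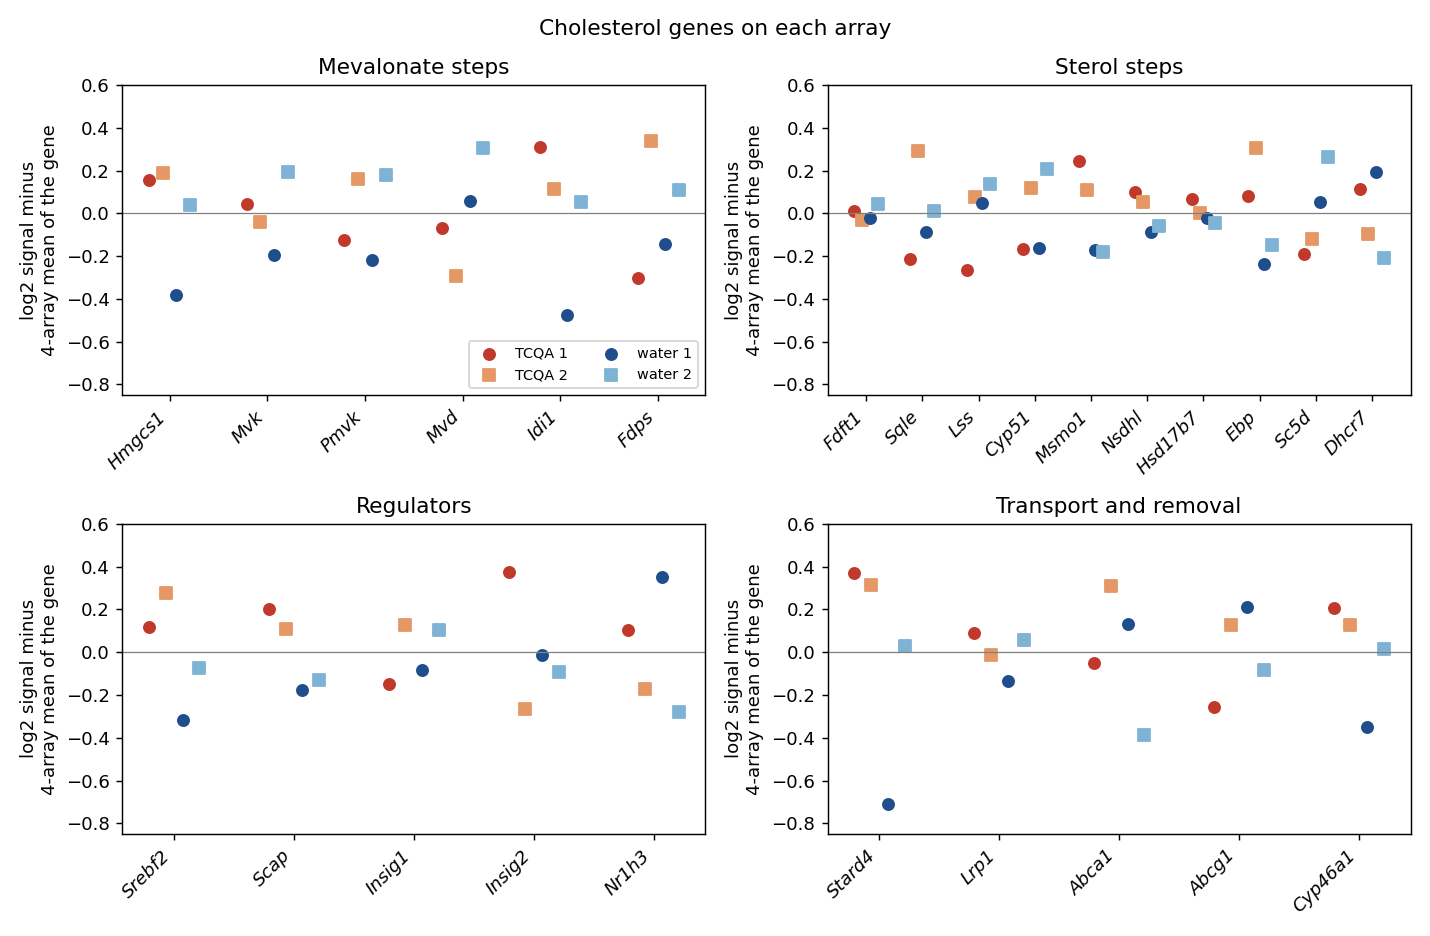
Log2 signal of each cholesterol gene on each array, minus the mean of the 4 arrays for that gene, in 4 panels by role. Red and orange points are TCQA arrays and blue points are water arrays. Water 1 (dark blue) is the lowest point for 11 of the 26 genes, with Stard4 and Idi1 the farthest below the other arrays.

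Promoter sequences were drawn from RefSeq (GRCm38.p6) because the synthesis genes are textbook targets of SREBP, which works beside the CCAAT-binding factor NF-Y. Windows of 250 bases before to 50 after a start were found for 21 of the 26 members. Fdps, Fdft1, Sqle, Abcg1 and Stard4 had no entry. Printed here are the 250 bases before the start, 5′ to 3′ on the gene's strand, for the member with the smallest p in each role that had an entry, and for Hmgcs1, which alone matched the sterol regulatory element. Capitals mark a sterol element (TCACNCCAC, or the shorter TCACCCCA) or a CCAAT box (CCAAT, or ATTGG on the other strand).
Hmgcs1, chr13:119690101-119690350, plus strand: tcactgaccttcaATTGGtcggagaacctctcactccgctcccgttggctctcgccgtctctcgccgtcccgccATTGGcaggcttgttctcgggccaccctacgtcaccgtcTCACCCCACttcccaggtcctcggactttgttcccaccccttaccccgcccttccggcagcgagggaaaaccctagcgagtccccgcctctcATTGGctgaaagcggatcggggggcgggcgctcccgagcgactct
Mvd, chr8:122443423-122443672, minus strand: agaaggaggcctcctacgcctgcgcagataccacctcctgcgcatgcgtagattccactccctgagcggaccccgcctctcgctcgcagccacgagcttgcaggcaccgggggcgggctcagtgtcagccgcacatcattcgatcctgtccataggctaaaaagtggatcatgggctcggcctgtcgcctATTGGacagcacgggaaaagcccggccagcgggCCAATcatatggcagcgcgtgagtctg
Ebp, chrX:8193513-8193762, minus strand: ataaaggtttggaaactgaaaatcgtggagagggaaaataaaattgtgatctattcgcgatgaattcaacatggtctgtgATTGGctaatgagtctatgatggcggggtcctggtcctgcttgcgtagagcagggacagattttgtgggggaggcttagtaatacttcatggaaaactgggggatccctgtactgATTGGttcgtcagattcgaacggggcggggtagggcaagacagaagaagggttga
Srebf2, chr15:82147019-82147268, plus strand: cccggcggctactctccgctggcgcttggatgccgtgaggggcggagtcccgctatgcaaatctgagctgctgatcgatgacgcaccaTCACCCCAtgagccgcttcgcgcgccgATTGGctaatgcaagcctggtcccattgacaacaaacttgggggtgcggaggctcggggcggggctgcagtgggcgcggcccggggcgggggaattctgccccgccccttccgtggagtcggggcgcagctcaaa
Cyp46a1, chr12:108334066-108334315, plus strand: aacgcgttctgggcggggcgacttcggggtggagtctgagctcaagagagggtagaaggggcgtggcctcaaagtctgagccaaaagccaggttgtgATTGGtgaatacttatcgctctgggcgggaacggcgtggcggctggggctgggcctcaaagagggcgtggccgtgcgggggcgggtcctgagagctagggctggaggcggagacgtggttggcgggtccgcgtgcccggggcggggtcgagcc

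Each of the 13 synthesis enzymes with a window held a CCAAT box on either strand, and 17 of all 21 members did (81.0%), beside 41.1% of 27025 genes with windows of the same length. A pair or more in a single window was found for 10 of 21 members (47.6%), beside 13.3% of genes. Mvk had 5 matches, and Hmgcs1 and Nsdhl had 4 each, of which 1 in Hmgcs1 lies after the start, beyond the printed stretch. The full element TCACNCCAC, searched on both strands, matched 1 of 21 members, beside 1.44% of genes, starting 137 bases before the start of Hmgcs1. The shorter TCACCCCA, added after these windows were seen, overlaps that match and also occurs 162 bases before the start of Srebf2, beside 1.77% of genes. The E-box CACGTG occurred in 6 of 21 members, which were Hsd17b7, Sc5d, Dhcr7, Scap, Insig1 and Abca1, beside 8.09% of genes. These are matches of letters, and a gene was counted if any of its windows matched. Genes differ in their number of windows and in base composition, and the 27025 genes are not limited to those on the array.

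**Figure D3:**
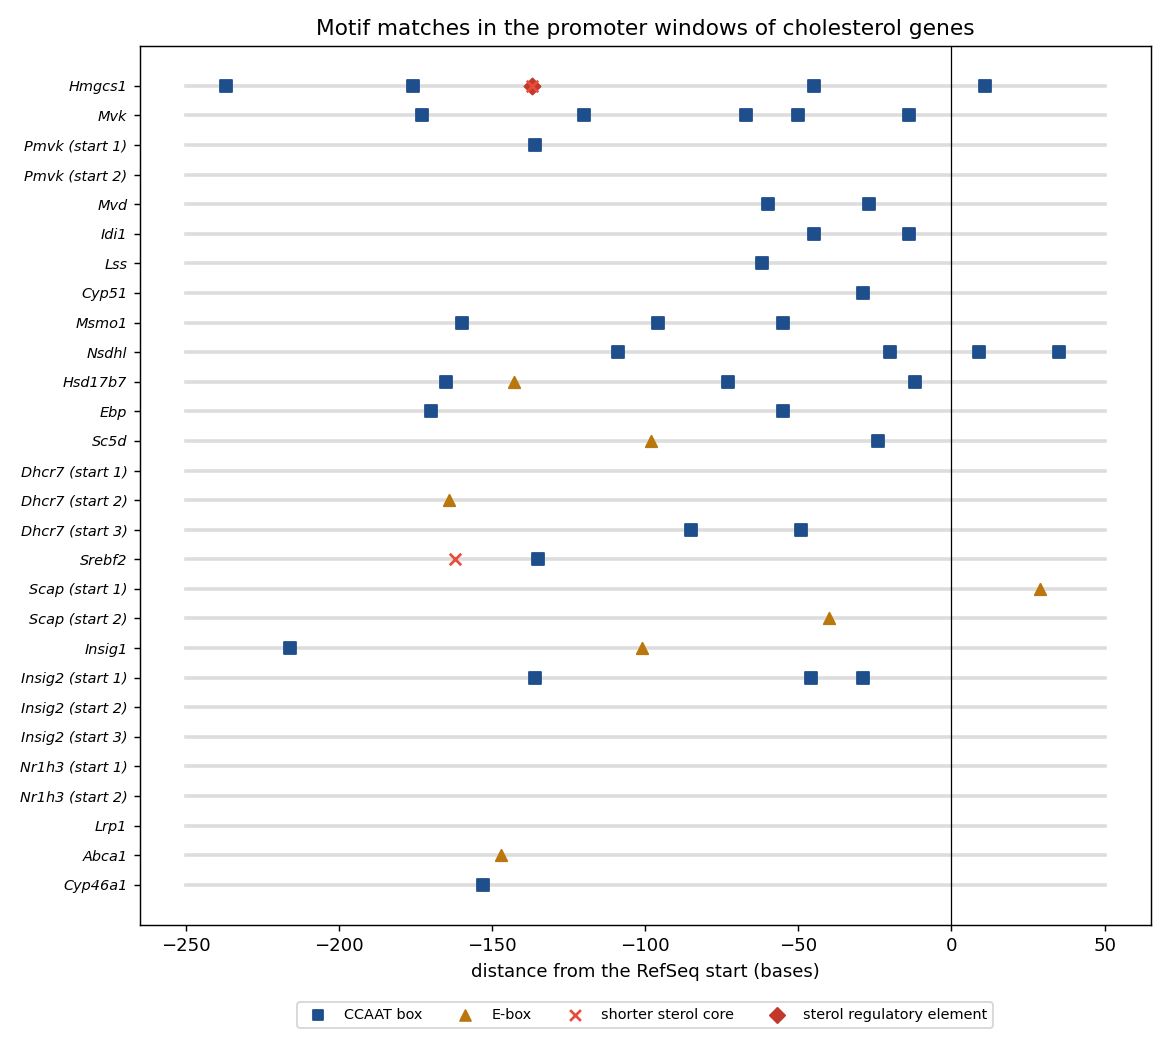
Positions of motif matches in the promoter windows of the 21 members with a RefSeq entry, in bases from the annotated start (leftmost base of each match, one row per start site). CCAAT boxes (blue squares) occur in 17 members, in 13 of 13 synthesis enzymes, and the full sterol regulatory element (red diamond) in Hmgcs1.

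Of the 6 measured genes of the mevalonate steps, 0 had an unadjusted p under 0.05, against 7.37% of all transcript clusters. The median difference was 0.036, and it was -0.13 without water 1, -0.032 without TCQA 2, 0.25 without TCQA 1 and 0.21 without water 2. Water 1 lay below water 2 for 6 of the 6 genes, with a median gap of -0.39, while 49.1% of all transcript clusters had water 1 below water 2.

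Hmgcs1, an early synthase of the mevalonate steps that carries the sterol element printed above, read 14.93 and 14.96 after TCQA and 14.39 and 14.81 after water. The groups did not overlap, and the TCQA arrays were 0.034 apart against 0.42 for the water arrays. The difference was 0.35 (SE 0.22, limma, adjusted p = 0.719), and it was 0.14 without water 1 and 0.33 to 0.56 with another array left out. Idi1, which isomerises the activated isoprene unit, read 9.38 and 9.18 after TCQA and 8.59 and 9.12 after water. Here too water 1 was the low array, and water 2 came within 0.061 of the nearer TCQA array. The difference of 0.42 (SE 0.24, limma, adjusted p = 0.703) was 0.16 without water 1, 0.32 without TCQA 1 and 0.52 without TCQA 2, and without water 2 it was 0.68 with an unadjusted p of 0.036.

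Mvd, the decarboxylase that yields that isoprene unit, ran the other way, with 7.56 and 7.34 after TCQA and 7.69 and 7.93 after water. Its groups did not overlap, with 0.13 between them, and the difference was -0.36 (SE 0.21, limma, adjusted p = 0.703), between -0.49 without water 1 and -0.24 without water 2. Pmvk, a kinase acting on mevalonate phosphate, read 7.94 and 8.23 after TCQA and 7.85 and 8.24 after water, with the groups interleaved and a difference of 0.038 (SE 0.23) that was -0.16 without water 1 and 0.24 without water 2. Mvk, the mevalonate kinase, and Fdps, the farnesyl pyrophosphate synthase, differed by 0.000525 and 0.035, and the 2 TCQA arrays of Fdps were 0.64 apart. Mvk was -0.19 without water 1 and 0.19 without water 2, and Fdps was 0.36 without TCQA 1 and -0.29 without TCQA 2, so neither has a settled direction.

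Of the 10 measured genes of the sterol steps, 0 had an unadjusted p under 0.05, against 7.37% of all transcript clusters. Above zero lay 6 (60%) and below it 4, while 50.5% of all transcript clusters lay above. The median difference was 0.042, between 0.053 and 0.093 with 1 array left out, where the highest value is that without water 2, and -0.026 after quantile normalisation.

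Ebp, the sterol isomerase, read 8.07 and 8.29 after TCQA and 7.75 and 7.84 after water. All TCQA values lay above all water values, by at least 0.23, and the difference was 0.38 (SE 0.19, limma, adjusted p = 0.690), between 0.27 without TCQA 2 and 0.50 without TCQA 1. Msmo1, an oxidase that takes part in the removal of methyl groups, read 9.52 and 9.39 after TCQA, against 9.11 and 9.10 after water. The water arrays were 0.0049 apart, the smallest such gap among the 26, and the difference was 0.35 (SE 0.19, limma, adjusted p = 0.690), between 0.28 without TCQA 1 and 0.42 without TCQA 2.

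Sc5d, the desaturase just before the last reductions, read 12.28 and 12.35 after TCQA and 12.53 and 12.74 after water. It was one of the 2 members whose TCQA arrays both lay below the water arrays, with a difference of -0.31 (SE 0.19, limma, adjusted p = 0.714), between -0.42 without water 1 and -0.21 without water 2. Lss, the cyclase that makes lanosterol, read 10.20 and 10.55 after TCQA and 10.52 and 10.61 after water. Its groups overlapped, TCQA 1 stood lowest, and the difference of -0.19 (SE 0.21) was -0.015 without TCQA 1 and -0.36 without TCQA 2.

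The other 6 enzymes stayed within 0.15 of zero. Nsdhl (0.15) and Hsd17b7 (0.068), which work with Msmo1 on the same methyl groups, had TCQA arrays above water arrays by 0.11 and 0.024. Sqle, the squalene epoxidase that is a rate-controlling step, differed by 0.077, with TCQA arrays 0.51 apart, and was 0.33 without TCQA 1 and -0.18 without TCQA 2. Fdft1, the squalene synthase (-0.020), Cyp51, the lanosterol demethylase (-0.048), and Dhcr7, the reductase at the end of the pathway (0.016), had overlapping groups, and each changed sign with 1 array left out.

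**Figure D4:**
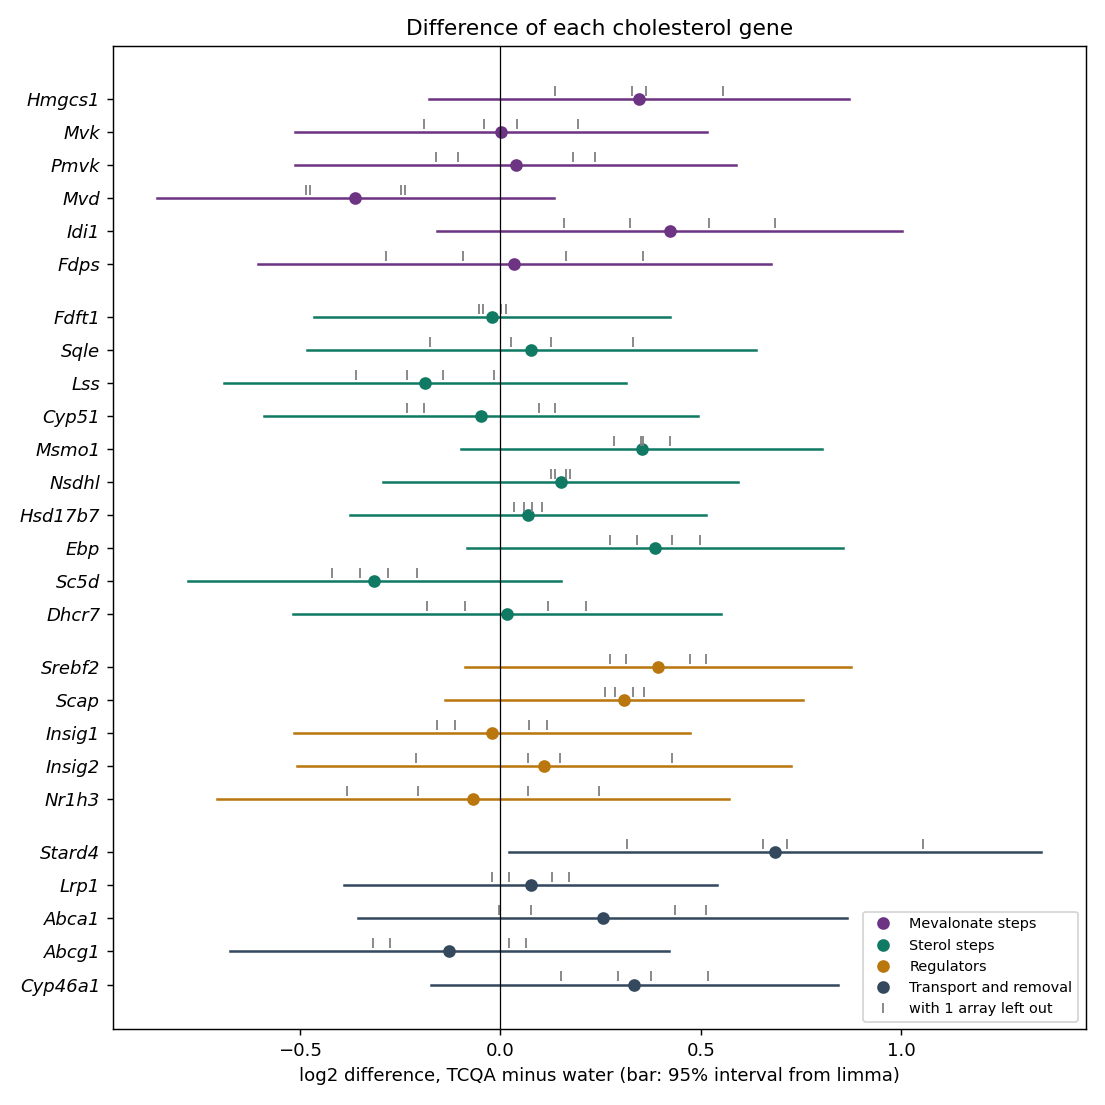
Log2 difference between TCQA and water for each cholesterol gene (point) with its 95% interval from limma (bar), and the 4 values obtained with 1 array left out (grey ticks). The interval of Stard4 (0.020 to 1.35) is the only one of the 26 that does not reach zero, and its grey tick at 0.32 is the value without water 1.

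Of the 5 measured regulators, 0 had an unadjusted p under 0.05, against 7.37% of all transcript clusters. The median difference was 0.11, and it was 0.12 with TCQA 1 left out, 0.31 with TCQA 2, 0.25 with water 1 and 0.072 with water 2 left out. The median over the list lay at 0.12 and 0.11 above the 4-array mean of each gene in the TCQA arrays and at -0.083 and -0.095 in the water arrays. A different gene set that median on each array. Both TCQA arrays lay above both water arrays only for Srebf2 and Scap, 2 of the 5 (40%), against 19.9% of all transcript clusters.

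Srebf2, the SREBP gene that mainly drives cholesterol synthesis, read 14.57 and 14.73 after TCQA and 14.13 and 14.37 after water. The groups were 0.19 apart, with water 1 lowest, and the difference was 0.39 (SE 0.20, limma, adjusted p = 0.690). Its unadjusted p was 0.0937, and 0.0203 with a variance prior that follows mean signal. The difference was 0.27 without water 1 (unadjusted p of 0.318), 0.31 without TCQA 2 (0.297), 0.47 without TCQA 1 (0.134) and 0.51 without water 2 (0.0861). Scap, the escort protein that carries SREBP out of the endoplasmic reticulum, read 10.64 and 10.54 after TCQA and 10.26 and 10.30 after water. Its arrays were close within each group, 0.097 and 0.044 apart, and the difference was 0.31 (SE 0.19, limma, adjusted p = 0.709), between 0.26 without TCQA 1 and 0.36 without TCQA 2.

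The retention proteins did not share that pattern in their array values. Insig2 read 8.21 and 7.57 after TCQA and 7.82 and 7.74 after water, so that the TCQA arrays enclosed the water arrays, with a difference of 0.11 (SE 0.26) that was -0.21 without TCQA 1 and 0.43 without TCQA 2. Insig1, itself a target of SREBP, ranged over the arrays from 11.00 to 11.28 with overlapping groups and differed by -0.021 (SE 0.21), between -0.16 without TCQA 2 and 0.12 without TCQA 1. Nr1h3, the oxysterol receptor LXR alpha, which switches on efflux genes, read 7.02 and 6.75 after TCQA and 7.27 and 6.64 after water. These values are near the negative control median, the groups overlapped, and the difference was -0.069 (SE 0.26), or 0.25 without water 1 and -0.38 without water 2.

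Among the 5 measured genes of transport and removal, 1 (Stard4, 20%) had an unadjusted p under 0.05, against 7.37% of all transcript clusters. Above zero lay 4 of the 5 (80%), against 50.5% of all transcript clusters, and the median difference was 0.25. It was 0.29 with TCQA 1 left out, 0.13 with TCQA 2, 0.15 with water 1 and 0.17 with water 2 left out. For 5 of the 5 genes the 2 water arrays were further apart than the groups, which held for 56.7% of all transcript clusters.

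Stard4, the SREBP-responsive carrier that moves sterol between membranes, read 8.70 and 8.65 after TCQA and 7.62 and 8.36 after water. The TCQA arrays were 0.059 apart, whereas water 1 lay 0.74 below water 2. The difference was 0.68 (SE 0.28, 95% interval 0.020 to 1.35), with an unadjusted p of 0.0451 and, by limma, an adjusted p of 0.673. It was 0.66 without TCQA 1 and 0.71 without TCQA 2 (unadjusted p of 0.109 and 0.0850), 0.32 without water 1 (unadjusted p of 0.244) and 1.05 without water 2 (unadjusted p of 0.00514). So the size of this difference depends on both water arrays.

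Cyp46a1, the neuronal enzyme that hydroxylates cholesterol so that it can leave the brain, read 12.20 and 12.12 after TCQA and 11.65 and 12.01 after water. The groups were 0.11 apart with water 1 lowest, and the difference was 0.33 (SE 0.21, limma, adjusted p = 0.719), or 0.15 without water 1, 0.29 without TCQA 1, 0.38 without TCQA 2 and 0.52 without water 2. Abca1, the efflux pump that lipidates apolipoproteins, read 10.92 and 11.28 after TCQA and 11.11 and 10.59 after water. Its groups overlapped, with water 2 lowest, and the difference of 0.25 (SE 0.25) was -0.0034 without water 2, 0.075 without TCQA 2, 0.43 without TCQA 1 and 0.51 without water 1.

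Abcg1, the pump that passes sterol to lipidated particles, read 9.67 and 10.05 after TCQA and 10.14 and 9.84 after water. The groups overlapped and the difference was -0.13 (SE 0.23), or 0.064 without TCQA 1 and -0.32 without TCQA 2. Lrp1, the endocytic receptor by which neurons take up apolipoprotein particles, ranged from 12.88 to 13.11 over the 4 arrays, with a difference of 0.075 (SE 0.19), between -0.021 without water 1 and 0.17 without water 2.

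Other genes of sterol and lipid handling were read from the same fit as a list of 39, of which 35 were measured. Of these, 1 was higher and 2 were lower with an unadjusted p under 0.05, or 8.57% against the background of 7.37%, and the median difference was -0.019. Elovl6, an elongase of long-chain fatty acids, read 12.10 and 12.28 after TCQA and 11.34 and 11.49 after water, a difference of 0.78 (SE 0.19, limma, adjusted p = 0.655). Its unadjusted p was under 0.05 in each of the 11 alternative settings, at most 0.0399.

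Acly, which makes the cytosolic acetyl-CoA that feeds both fatty acids and mevalonate, ran opposite, with 11.75 and 11.87 after TCQA and 12.54 and 12.29 after water. The difference was -0.60 (SE 0.20, limma, adjusted p = 0.673), and its unadjusted p was 0.0918 without TCQA 1 (-0.55) and 0.103 without water 1 (-0.48). Npc2, a lysosomal sterol carrier, differed by -0.58 (SE 0.19), but 4 of 4 arrays lay below the negative control median. Its unadjusted p was over 0.05 without TCQA 2 (-0.48), without water 1 (-0.59) and without water 2 (-0.56). Pltp, a phospholipid transfer protein, differed by 0.50 (SE 0.25, unadjusted p of 0.0872 by limma). It was 0.80 without water 1 (unadjusted p of 0.0187) and 0.21 without water 2 (unadjusted p of 0.436).

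Markers of cells that make or use cholesterol, and of neighbouring tissue, were read on the same arrays. Myelinating oligodendrocyte markers were lower after TCQA for 10 of 11 genes, with a median of -0.40, and their mean level was 12.12 in water 1 against 11.54 in water 2 and 11.47 and 11.45 in the TCQA arrays. Excitatory cortical neuron markers were higher for 7 of 7, with a median of 0.61, and their mean level was 10.95 in water 1 against 11.91 in water 2 and 12.002 and 11.951 in the TCQA arrays. Water 1, the lowest array for 11 of the 26 cholesterol genes and the highest for 3, was thus the array with the lowest cortical neuron and the highest myelin marker level. It was not the lowest for Msmo1 and Hsd17b7, whose TCQA arrays also both lay above both water arrays. The part of these markers in the differences of the cholesterol genes was not tested.

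Astrocyte markers, of the cells that supply sterol to neurons, had mean levels of 12.66 and 12.68 after TCQA and 12.91 and 12.83 after water, and 6 of 8 were lower. Striatal markers, all 6 above the negative control median on all arrays, had mean levels of 13.58 and 13.05 after TCQA and 14.61 and 13.38 after water. Choroid plexus markers were lower after TCQA for 8 of 8, with mean levels of 7.83 and 7.03 against 9.39 and 8.68, although Otx2 and F5 lay below the negative control median on every array. Olfactory bulb markers had a mean level of 8.54 in TCQA 2, against 5.70, 6.33 and 5.87 in TCQA 1, water 1 and water 2. Only 1 of these 5 markers lay at or above the negative control median on all arrays. Oligodendrocyte precursor markers had mean levels of 6.47 and 6.43 after TCQA and 6.46 and 6.32 after water. Of these 4 markers, 3 lay below the negative control median on every array. Microglial markers stood at 9.41 and 9.04 against 9.50 and 9.37. The part of these lists in the differences was not tested either.

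**Figure D5:**
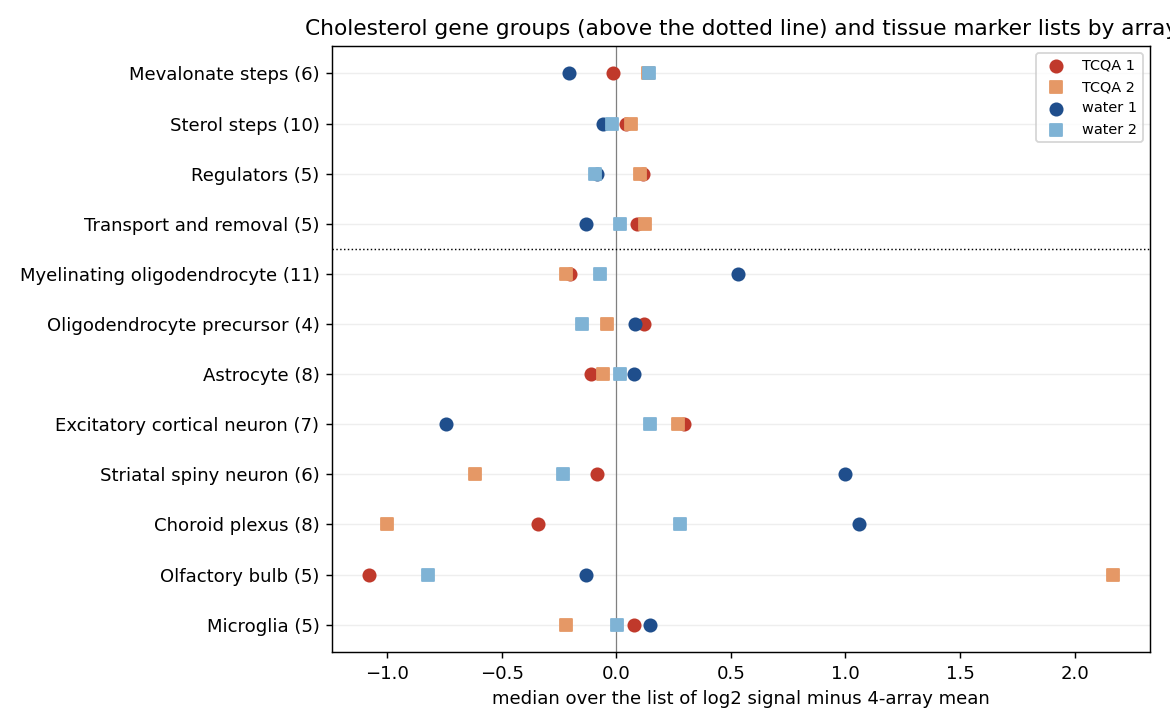
Median, over each gene list, of the log2 signal minus the gene's 4-array mean, for the 4 groups of cholesterol genes (above the dotted line) and for tissue marker lists (below it), with the number of genes in brackets. Each point is 1 array. The cholesterol groups stay between -0.20 and 0.14, while water 1 (dark blue circle) reaches 0.53 for myelin markers and -0.74 for excitatory neuron markers.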

How the data were processed

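Log2 signals per transcript cluster of 4 Clariom S arrays were used as the authors deposited them. Per the submitters' design text, they were made with signal space transformation RMA in the Transcriptome Analysis Console 4.0.2 from 100 ng of RNA, and per the submitters' processing notes with RMA and limma. RMA equalises array distributions, so no depth remains, and precision is limited by having 4 arrays. For the genome build, the sources used here give none. Of 28846 rows, the 19572 with 1 gene symbol in the platform annotation were tested.

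Groups follow the sample titles. TCQA was compared with water with limma 3.58.1 in R 4.3.3 (lmFit, eBayes, no trend or block, 2-sided), adjusted by Benjamini-Hochberg over all 19572. The median SE was 0.22. An exact permutation test of 2 against 2 arrays cannot go below 0.333, so none was run. The code was checked on simulated data. Motifs were searched in RefSeq windows as literal letters, and minus-strand windows were checked to run along the gene (874 overlapping pairs matched). Figures used matplotlib 3.10.9 in Python 3.11.15.

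Members and lists were chosen with earlier results of these data known. Named by rule were the 4 members with the smallest p per role, any with an unadjusted p under 0.05, and the 4 related genes with the smallest p. Alternatives were a replicate block, each array left out, quantile normalisation, median centring, a filter on dim rows, 2 other variance priors and averaged rows. Replicate numbers are shared by the groups, but same-numbered arrays did not deviate together (r = -0.0032 across genes), so arrays were not paired.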

Additional observations from a re-analysis of the deposited data

How the results depend on the processing

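Under 11 alternative settings the 26 cholesterol genes gave 284 values, of which 257 stayed on the same side of zero, and 13 genes did so in each setting. The replicate block, the dim filter, the 2 other variance priors and the averaged rows leave a member's difference unchanged. They could therefore not change a sign, and their values do not measure stability. The 27 sign changes all came with 1 array left out, quantile normalisation or median centring. The count of cholesterol genes with an unadjusted p under 0.05 was 1 of 26 with all arrays, against 1443 of all 19572 transcript clusters. It was 0 after quantile normalisation (1346 of all), 0 after median centring (1423) and 0 with a variance prior from all probe sets (984). With a prior that follows mean signal the count of cholesterol genes was 2, against 1589 of all transcript clusters. With the replicate block it was 1, and over all transcript clusters 1497 against 1443, with no adjusted call. The count of related genes was 5 with the trended prior and 2 to 4 with 1 array left out, against 3. Over all transcript clusters the adjusted calls were 0 to 2 with 1 array left out. Those by the study's criteria were 218 to 428 so, and 56 with the dim filter, against 130. Those with an unadjusted p under 0.05 were 942 with the dim filter, which tests fewer rows, and 1011 to 1735 with 1 array left out.

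Medians with 1 array left out ranged from 0.089 to 0.15 for all 26 genes, -0.13 to 0.25 for mevalonate steps, 0.053 to 0.093 for sterol steps, 0.072 to 0.31 for regulators and 0.13 to 0.29 for transport and removal. After quantile normalisation the median was -0.026 for sterol steps and 0.070 for regulators, and the regulators had 0.091 after median centring and 0.21 with the dim filter, which drops Nr1h3. For the other moves the cause was not tested. With a lone array in a group, that array is assumed to vary like the other group. Values near the negative control median, such as those of Mvk, Fdps, Nr1h3 and Npc2, carry folds of uncertain size.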
